A study of Mus musculus with 12 samples.

Results

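Most of the 28 genes described here make cholesterol from acetyl units or control the transcription factors that switch that synthesis on. Ggps1 branches off that route, and Stard4 and Lpin1 are targets of these factors outside it. All 28 were listed by name, and each was represented by the probe set annotated to it alone that had the highest mean signal. Of the 28 genes, 27 had such a probe set, and Acat2, a cytosolic acetoacetyl-CoA thiolase, had none. All 27 passed the filter on low signals and lay above the median of their own array on all 12 arrays. They belong to 12429 genes tested, out of 18193 on the array.

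Messenger RNA was measured on 12 Affymetrix arrays, 1 per culture, in dendritic cells grown for 10 days from bone marrow of mice aged 6-8 weeks with the growth factor GM-CSF at 20 ng/ml. Cultures had no retinoid, all-trans-retinoic acid (RA, 10 nmol as labelled) or Ro41-5253 (Ro, 100 nmol as labelled), which blocks the alpha form of the retinoic acid receptor, from the start. Each of these was grown without or with LPS, a bacterial cell wall component, at 1 ug/ml. The 6 conditions, control, RA, Ro, control+LPS, RA+LPS and Ro+LPS, were each measured once in BALB/c and once in BL6, so every condition has 2 arrays and every retinoid 4. All cultures share GM-CSF, and the sources do not say when LPS was added or whether different animals gave the cultures of a strain. P-values then measure the spread between these arrays, which may be technical. Any batch shared by the arrays of a replicate number and the strain itself cannot be told apart.

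As background, cells sense cholesterol in the membrane of the endoplasmic reticulum. When it is low, the escort protein Scap carries the precursors Srebf2 and Srebf1 to the Golgi, where the proteases Mbtps1 and Mbtps2 cut them and free a transcription factor that binds sterol regulatory elements in the promoters of the synthesis genes. When cholesterol or an oxysterol is high, Insig1 or Insig2 holds Scap back. In macrophages and dendritic cells the pathway is known to respond to microbial signals, and its products include oxysterols and the isoprenoids that anchor small GTPases.

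Promoter windows, from 250 bases before to 50 bases after each RefSeq transcription start in GRCm38.p6, were found for 24 of the 28 genes, in 32 windows. The motifs searched on both strands were a sterol regulatory element written as TCACNCCAC, the CCAAT box bound by NF-Y, written as CCAAT, the GC box GGGCGG and the E-box CACGTG. The sterol element was found in 1 of the 32 windows, that of Hmgcs1, as TCACCCCAC starting 137 bases before the start, and in 1.24% of 32851 windows of the same length over all genes. CCAAT was found in 20 of the 32 windows against 37.4% over all genes, GGGCGG in 24 against 35.7%, and CACGTG in 6 against 7.15%. A match is a description of letters and not a measured site. Only exact matches to these letters were searched, so a window without a match may still hold a variant of the sterol element. The 5 windows below belong to members that the results turn on: 3 whose signals were lower with LPS and higher with Ro (Hmgcs1, Mvk and Srebf2) and 2 that were higher with LPS (Insig2 and Pmvk). Capitals mark the sterol element and CCAAT on either strand, the latter read as ATTGG on the reverse. The windows are chr13:119690101-119690400 on the plus strand for Hmgcs1, chr5:114444019-114444318 on the plus strand for Mvk, chr15:82147019-82147318 on the plus strand for Srebf2, chr1:121332540-121332839 on the minus strand for Insig2, the most upstream of its 3 starts, and chr3:89454291-89454590 on the plus strand for Pmvk, the more upstream of its 2 starts.
Hmgcs1: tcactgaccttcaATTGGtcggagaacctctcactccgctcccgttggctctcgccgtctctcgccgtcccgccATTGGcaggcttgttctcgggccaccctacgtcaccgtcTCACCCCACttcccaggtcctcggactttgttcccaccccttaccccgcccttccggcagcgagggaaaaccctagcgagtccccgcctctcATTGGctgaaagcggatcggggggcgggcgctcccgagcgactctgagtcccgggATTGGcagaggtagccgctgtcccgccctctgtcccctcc
Mvk: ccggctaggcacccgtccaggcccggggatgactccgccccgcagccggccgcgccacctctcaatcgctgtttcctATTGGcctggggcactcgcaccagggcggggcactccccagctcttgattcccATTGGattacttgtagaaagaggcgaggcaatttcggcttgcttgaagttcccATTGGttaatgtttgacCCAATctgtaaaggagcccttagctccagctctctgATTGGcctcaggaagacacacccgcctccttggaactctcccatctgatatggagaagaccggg
Srebf2: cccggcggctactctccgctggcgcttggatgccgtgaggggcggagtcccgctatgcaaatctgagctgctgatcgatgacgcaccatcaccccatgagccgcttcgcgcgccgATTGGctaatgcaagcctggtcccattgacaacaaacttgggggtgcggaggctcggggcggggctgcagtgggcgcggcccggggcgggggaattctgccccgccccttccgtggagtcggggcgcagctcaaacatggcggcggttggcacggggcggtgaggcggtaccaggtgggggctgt
Insig2: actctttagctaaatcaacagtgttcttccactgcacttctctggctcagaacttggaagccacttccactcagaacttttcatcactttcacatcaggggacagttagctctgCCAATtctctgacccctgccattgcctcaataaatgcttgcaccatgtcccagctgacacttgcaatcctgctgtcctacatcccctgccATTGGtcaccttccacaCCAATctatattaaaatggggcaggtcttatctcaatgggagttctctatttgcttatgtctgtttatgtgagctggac
Pmvk: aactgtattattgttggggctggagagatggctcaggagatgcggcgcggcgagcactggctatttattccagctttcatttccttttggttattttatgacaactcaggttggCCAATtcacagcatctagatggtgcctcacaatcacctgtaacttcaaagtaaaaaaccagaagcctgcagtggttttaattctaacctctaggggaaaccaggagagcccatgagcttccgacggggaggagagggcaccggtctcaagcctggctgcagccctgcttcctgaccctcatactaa

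The window of Mvk held 5 CCAAT matches, that of Hmgcs1 held 4, that of Insig2 held 3, and those of Srebf2 and Pmvk held 1 each. The other 2 windows of Insig2 and the other window of Pmvk held none.

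The deposited array medians ran from 21.4 to 41.8, so the arrays were quantile normalized, and every signal below is on that linear scale. Of 14 markers of the labelled cell type, 12 to 14 lay above the array median on each array. Cd74, the invariant chain, ranged from 12371 to 14384 over the 12 arrays and Itgax, the CD11c integrin, from 1186 to 6179. Zbtb46, at 22.9 to 394, and Cd209a, at 19.7 to 3178, were at their lowest below the array median of 29.3. Flt3 was low on every array, at 5.33 to 98.4. Macrophage and granulocyte genes were also present. Without LPS the summed signal of 13 macrophage markers was 44424 to 79040, against 36697 to 67197 for the 14 dendritic cell markers. With LPS these sums were 13442 to 66092 and 43070 to 85999.5. Markers of T, B and stromal cells were mostly near background, apart from Ighm, an immunoglobulin chain, at 7.36 to 1769. The sum of 8 mast cell and basophil genes was 122 to 2436 without LPS and 509 to 1809 with it, and was highest on the Ro BL6 array. Among them Cpa3 and Hdc reached 1443 and 1680, while Fcer1a and Tpsb2 reached at most 21.2 and 16.1. In these bulk cultures, fewer cells of a type and less RNA per cell cannot be told apart.

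LPS was compared first, with 6 arrays against 6, in a model of retinoid, LPS and strain. Of the 27 genes, 18 fell, 3 rose and 6 did not pass the threshold of 0.05 on the adjusted p, which is what a call means below. Over all 12429 genes, 28.8% fell and 24.4% rose. The median change of the members was -0.62 on the log2(signal + 16) scale, against -0.01 over all genes. Adding 16 reduces noise at low signals and makes the changes of dim genes look smaller. Genes that fell came from every stage of the pathway, from Hmgcs1 at its entry to Dhcr7 at its last step, and included Srebf2 and Scap. The 3 that rose were Pmvk, Ggps1 and Insig2. In matched pairs of the same strain and retinoid, 16 members were lower with LPS in 6 of 6 pairs, 2 were higher in 6 of 6, and 9 were mixed. The share of all genes that did so was not counted, so these pair counts do not set the members apart. With the scaling as deposited, 19 members fell and 3 rose, and the median of all genes moved by -0.41. The share of higher genes among all called was then 18.7% in place of 45.8%. What share of all genes was called at that scaling is not given here, so these counts do not set the members apart. Markers of dividing cells moved with LPS: 20 of 21 proliferation genes fell and 1 rose, and their summed signal was 13522 to 29982 without LPS and 4302 to 6216 with it. Granulocyte markers fell in 10 of 12, with a summed signal of 10678 to 60169 without LPS and 4210 to 17375 with it. Of these 12, 10 to 12 lay above the array median without LPS and 6 to 11 with it. The macrophage sum was also lower with LPS in each matched pair, and the dendritic cell sum was higher in each. The B and plasma cell sum was 848 to 1941 without LPS and 129 to 280 with it. Within it Ighm reached 1769 and Cd79b and Jchain 196 and 166, while Cd79a, Ms4a1 and Pax5 reached at most 14.1, 36.2 and 43.9. Of its 6 genes, 2 to 3 lay above the array median without LPS and 1 to 3 with it. The part of any of these in the results below was not tested.

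**Figure D1:**
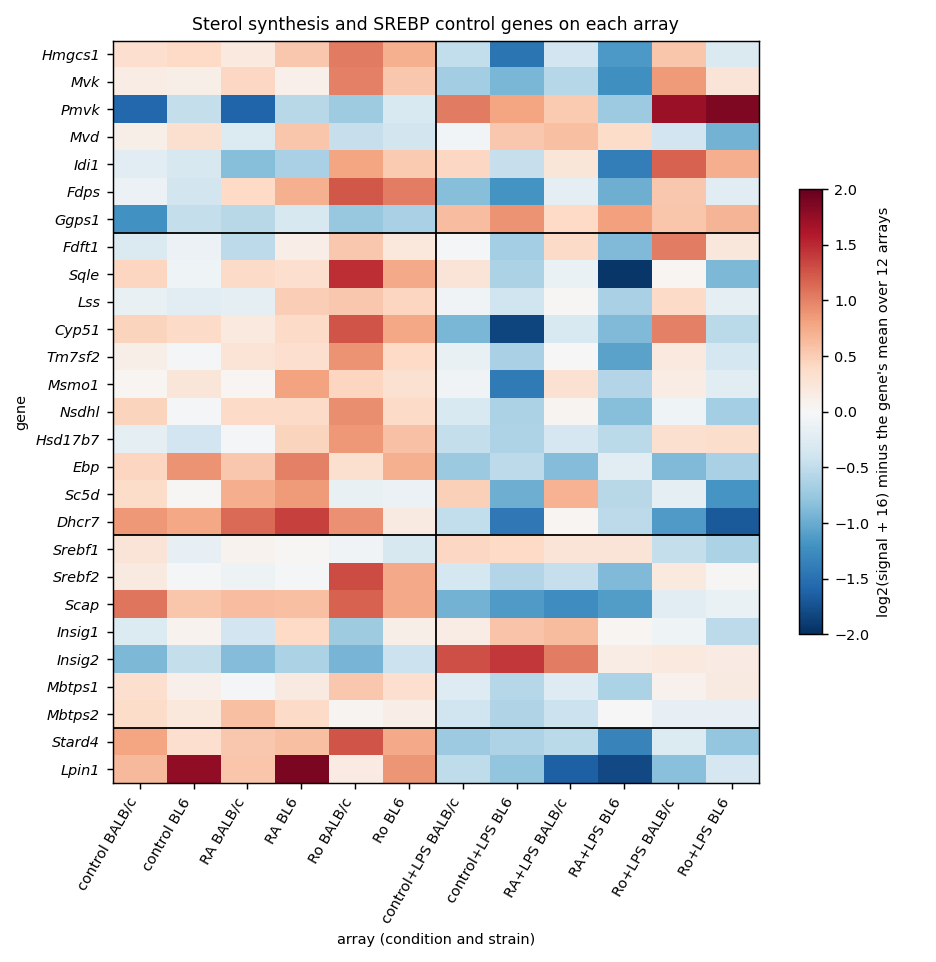
Each row is a gene and each column an array, and the colour is the log2(signal + 16) of that array minus the gene's mean over the 12 arrays. The mean of the 27 deviations was highest on the Ro BALB/c array (0.48) and lowest on the RA+LPS BL6 array (-0.68).

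The enzymes that lead from acetoacetyl-CoA to the isoprene units were first in the pathway. Hmgcs1 makes HMG-CoA, and its signal was 2471, 2989 and 4459.6 (lowest, median and highest) in the 6 arrays without LPS and 771, 1594 and 3158 in the 6 with it. The groups overlapped only because the Ro+LPS BALB/c array (3158) lay above the lower arrays without LPS. Hmgcs1 fell by 1.07 ± 0.18 on the log2 scale (standard error; 2.10-fold, limma adjusted p = 0.000457). Mvk, the mevalonate kinase, was at 188, 216 and 367 without LPS and at 65.2, 107 and 326 with it. It fell by 0.77 ± 0.17 (adjusted p = 0.00296), and the 2 Ro+LPS arrays, at 326 and 211, held the highest signals of the LPS group.

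Pmvk, the kinase of the next step, went the other way. It was at 258, 519 and 653 without LPS and at 483, 1549.7 and 3013 with it, a rise of 1.74 ± 0.30 (3.34-fold, adjusted p = 0.000645). It was higher in 5 of 6 pairs, and the exception was the RA pair of BL6, at 546 without and 483 with LPS. Mvd, which decarboxylates the product, was at 522 to 1068 without LPS and 371 to 1113 with it, a difference of 0.05 ± 0.18 that did not pass (adjusted p = 0.848). Idi1, which isomerises the isoprene unit, differed by 0.24 ± 0.19 (adjusted p = 0.31).

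Fdps and Ggps1 join isoprene units into farnesyl and geranylgeranyl diphosphate, the latter outside the route to cholesterol. Fdps was at 1276, 2442 and 3918 without LPS and 708, 1165 and 2399 with it, and fell by 0.96 ± 0.14 (1.95-fold, adjusted p = 0.000186). Ggps1 was at 78.6, 128 and 159 without LPS and 271, 326 and 391 with it, with no overlap. It rose by 1.32 ± 0.14 (2.50-fold, adjusted p = 1.78e-05), so the 2 prenyl diphosphate synthases moved in opposite directions with LPS. The second probe set of Ggps1 gave 1.39, but the dimmer ones gave -0.39 and 0.19, and the gene's change therefore depended on the probe set.

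In the steps from farnesyl diphosphate to lanosterol, Fdft1, the squalene synthase, differed by 0.01 ± 0.22 (adjusted p = 0.968), and Lss, the lanosterol synthase, by -0.30 ± 0.17 (adjusted p = 0.169). Between them, Sqle, the squalene epoxidase and a rate-limiting enzyme, was at 585, 827 and 1748 without LPS and at 149, 478 and 744 with it. It fell by 1.10 ± 0.24 (2.15-fold, adjusted p = 0.00264). The groups overlapped because the BALB/c control+LPS and Ro+LPS arrays (744 and 638) lay above the BL6 control array (585).

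Of the 8 enzymes that turn lanosterol into cholesterol, all fell with LPS in this fit, by different sizes. Dhcr7, which makes cholesterol from 7-dehydrocholesterol, was at 171, 289.8 and 408 without LPS and at 35.2, 79.2 and 153 with it, with no overlap. It fell by 1.74 ± 0.17 (3.35-fold, adjusted p = 1.09e-05). Ebp, the sterol isomerase, was at 1599.6, 1996 and 2583 without LPS and at 684, 785 and 1102 with it, also with no overlap. It fell by 1.30 ± 0.09 (2.46-fold, adjusted p = 1.33e-06), and its standard error was the smallest of the 27. Cyp51, the lanosterol demethylase, was at 362, 423 and 768 without LPS and at 76.5, 187 and 646 with it, and fell by 1.15 ± 0.24 (adjusted p = 0.00185). The array at 646 was Ro+LPS of BALB/c, and without it the highest LPS signal was 249.8.

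The other 5 of these enzymes overlapped between the groups. Nsdhl, a sterol dehydrogenase, was at 524 to 1028 without LPS and 289 to 553 with it and fell by 0.83 ± 0.13 (adjusted p = 0.000281). Tm7sf2, a sterol reductase, fell by 0.67 ± 0.16 from a median of 267 to 177. Msmo1, a sterol C4-methyl oxidase, fell by 0.62 ± 0.23 (adjusted p = 0.0392), Sc5d, a sterol desaturase, by 0.57 ± 0.21 (adjusted p = 0.0349) and Hsd17b7, a ketosteroid reductase, by 0.44 ± 0.14 (adjusted p = 0.0231). These last 3 did not hold in every fit. The call of Msmo1 was lost without any 1 of 7 arrays and in 5 of the 8 alternative settings (common trimmed mean, no filter, mean of probe sets, no intensity trend and no strain block), and that of Hsd17b7 without the Ro array of BALB/c or the RA array of BL6. The call of Sc5d was lost without the strain block and without any 1 of the 6 BL6 arrays: in BL6 alone it fell by 1.16 ± 0.20, and in BALB/c alone it was 0.01 ± 0.16. The other 18 called members kept the call in each of the 12 fits that left out 1 array.

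Among the escort protein, the factors, the proteases and the retention factors, Scap moved most. It was at 443, 483 and 689 without LPS and at 115, 137 and 267 with it, with no overlap, and fell by 1.59 ± 0.15 (3.02-fold, adjusted p = 1.09e-05). Srebf2, the factor for sterol genes, was at 455, 518 and 1239.8 without LPS and at 260.0, 365 and 562 with it. It fell by 0.69 ± 0.12 (1.62-fold, adjusted p = 0.000595) and overlapped only through the Ro+LPS arrays, at 562 and 496. Srebf1, whose products mainly drive fatty acid genes, was at 562 to 846 without LPS and 447 to 941 with it, a difference of 0.07 ± 0.13 (adjusted p = 0.695).

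Both activating proteases were lower with LPS. Mbtps1, at 557 to 826 without LPS and 359 to 639 with it, fell by 0.49 ± 0.12 (adjusted p = 0.00458). Its 2 dim probe sets gave 0.06 and 0.31, and the call was lost when the probe sets were averaged. Mbtps2 fell by 0.59 ± 0.14 (adjusted p = 0.00443) from 261 to 389 without LPS to 159 to 248 with it, with no overlap. Of the retention factors, Insig2 was at 249, 287 and 359 without LPS and at 543, 789 and 1329 with it, with no overlap, and rose by 1.41 ± 0.22 (2.66-fold, adjusted p = 0.00029). Its 3 probe sets gave 1.41, 1.04 and 1.06. Insig1 was at 405 to 899.7 without LPS and 466 to 1062 with it, a difference of 0.26 ± 0.20 that did not pass (adjusted p = 0.282).

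Stard4 and Lpin1 are known targets of these factors outside the synthesis route. Stard4, which carries cholesterol between membranes, was at 547, 699 and 1054 without LPS and at 162, 266 and 353 with it and fell by 1.42 ± 0.14 (2.67-fold, adjusted p = 1.26e-05). Lpin1, a phosphatidate phosphatase that also restrains nuclear Srebf activity, was at 404, 625 and 1370.1 without LPS and at 91.0, 198 and 282 with it. It fell by 1.97 ± 0.30 (3.91-fold, adjusted p = 0.000271), the largest change of the 27 in this comparison. Neither gene's groups overlapped. In all, the LPS arrays lay wholly below the others in 6 members and wholly above in 2, against 10.7% and 8.30% of all genes tested.

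The fall was then looked at within each retinoid condition, with 2 arrays against 2. Without retinoid, 13 members fell and 3 rose, where 21.9% and 16.4% of all genes did. In RA cultures 13 fell and 2 rose, against 16.8% and 12.6%. In Ro cultures 8 fell and 2 rose, against 15.4% and 12.2%. Dhcr7, Ebp, Fdps, Nsdhl, Scap, Srebf2 and Stard4 fell in each of the 3, and Ggps1 rose in each. How many of all genes were called in each of the 3 was not counted, and the shares above are those of single conditions. The call of Srebf2 was weak: in RA cultures it was made in 0 of the 12 fits without 1 array and in 5 of the 8 alternative settings, and without retinoid in 2 and 4. That of Nsdhl was lost without the strain block in all 3. That of Ggps1 in RA cultures was lost at the deposited scaling and with the mean of probe sets. Fdps lost the call without the block both without retinoid and in Ro cultures, with no intensity trend without retinoid and with the common trimmed mean in Ro cultures. Ebp and Stard4 kept the call in each of these fits in all 3. As deposited, 17 members fell and 3 rose without retinoid. With RA 18 fell and 1 rose, and with Ro 15 fell and 2 rose. Shares of all genes called at that scaling are not given here, so these counts do not set the members apart. The share of higher genes among all called was then 17.6%, 18.6% and 20.0%, in place of 42.9%, 42.9% and 44.3%. These counts rest on few arrays: leaving out the Ro array of BALB/c gave 4 calls in place of 10 in Ro cultures, and leaving out the RA array of BL6 gave 7 in place of 15 in RA cultures. Without retinoid, 9 to 10 calls in place of 16 were made without either control array or without the control+LPS array of BL6. Without the strain block, 9 calls were made in RA cultures.

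**Figure D2:**
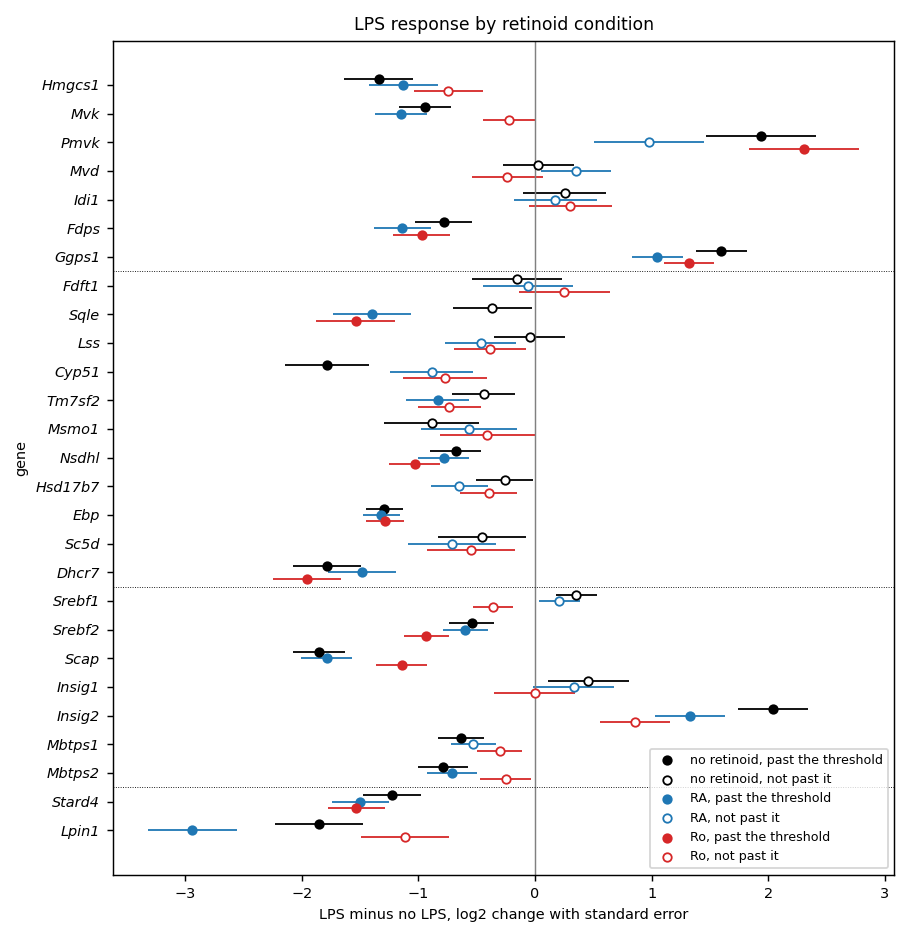
The change with LPS of each member is plotted on the log2(signal + 16) scale for cultures without retinoid, with RA and with Ro, and the bars are standard errors of the model. Filled points passed the threshold and open points did not. Ebp lies at -1.29, -1.32 and -1.29 in the 3, while Insig2 lies at 2.04, 1.33 and 0.86.

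Single genes differed in how evenly they moved. Ebp fell by 1.29 ± 0.16, 1.32 ± 0.16 and 1.29 ± 0.16 without retinoid, in RA and in Ro. Cyp51 fell by 1.79 ± 0.36 without retinoid (adjusted p = 0.00404), and its values in RA and Ro, -0.89 and -0.77, did not pass. Sqle had -0.37 ± 0.34 without retinoid (adjusted p = 0.42) and fell by 1.40 ± 0.34 in RA and by 1.54 ± 0.34 in Ro. Lpin1 fell by 2.94 ± 0.38 in RA cultures (7.66-fold, adjusted p = 0.000541) and had -1.11 ± 0.38 in Ro cultures (adjusted p = 0.0537). Insig2 rose by 2.04 ± 0.30 without retinoid (4.11-fold) and by 1.33 ± 0.30 in RA, and had 0.86 ± 0.30 in Ro (adjusted p = 0.0618).

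Whether a retinoid changed the response to LPS was tested directly, and no member passed. For Ro by LPS the smallest adjusted p among members was 0.172, for Srebf1 (-0.71 ± 0.24), and 5 members had an unadjusted p under 0.05, while 1.42% of all genes were called. Insig2 had -1.18 ± 0.43 (adjusted p = 0.193) and Sqle -1.17 ± 0.48 (adjusted p = 0.239). For RA by LPS no member had an unadjusted p under 0.05, the smallest adjusted p was 0.684, and 0 of the 12429 genes were called by limma, with 914 at an unadjusted p under 0.05. The differences between retinoid conditions in the preceding values were therefore not shown to exceed the spread.

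Ro was compared with no retinoid next, over both LPS states, with 4 arrays against 4. Of the 27 members, 7 rose (Fdps, Cyp51, Mvk, Idi1, Hsd17b7, Hmgcs1 and Srebf2) and 2 fell (Mvd and Srebf1), where 7.58% of all genes rose and 6.61% fell. The median change of the members was 0.38, against 0.05 over all genes. In the 4 matched pairs, 14 members were higher with Ro in 4 of 4 and 4 were lower in 4 of 4 (Mvd, Ebp, Sc5d and Srebf1). How many of all genes were as even over these pairs was not counted. At the deposited scaling 14 members were called, all of them higher, and the median of all genes moved by 0.23. Of all called genes 76.4% were then higher, in place of 53.4%. As the share of all genes called at that scaling is not given here, the 14 calls do not set the members apart. Without the strain block 4 rose. Leaving out 1 array gave 4 to 10 calls. There were 4 to 5 calls without the control array of BALB/c, either control+LPS array or either Ro+LPS array, and 6 without the Ro array of BL6. In BL6 alone limma called no member, with 0.603% of all genes called, and in BALB/c alone 1, with 1.47%.

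Mvk, Fdps, Hsd17b7 and Srebf2 kept the call in each of the 12 fits without 1 array and in each of the 8 alternative settings. Fdps was at 1518 and 908 in the BALB/c cultures without retinoid (without and with LPS) and at 1276 and 708 in those of BL6. With Ro it was at 3918 and 2399 in BALB/c and at 3382 and 1422 in BL6. Every Ro array lay above its matched control, and Fdps rose by 1.28 ± 0.17 (2.43-fold, limma adjusted p = 0.00127). Mvk was at 194 and 101 in BALB/c and 191 and 84.6 in BL6 without retinoid, and at 367, 326, 259.7 and 211 with Ro in the same order. All 4 Ro signals lay above all 4 controls, and Mvk rose by 1.00 ± 0.21 (2.00-fold, adjusted p = 0.0111).

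Srebf2 was at 557 and 379 in BALB/c and 479.5 and 322 in BL6 without retinoid, and at 1239.8, 562, 845 and 496 with Ro. Each Ro array lay above its matched control, while the Ro+LPS array of BL6 lay below the BALB/c control without LPS. Srebf2 rose by 0.77 ± 0.15 (1.70-fold, adjusted p = 0.00721). Hsd17b7 was at 93.5, 73.2, 78.8 and 64.9 without retinoid and at 209, 138, 170.1 and 141 with Ro, with no overlap, and rose by 0.94 ± 0.17 (1.92-fold, adjusted p = 0.00617).

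The other 5 calls were lost in some fits. Cyp51 rose by 1.10 ± 0.29 (adjusted p = 0.0295), from 433, 159, 413 and 76.5 to 768, 646, 545 and 211. Idi1 rose by 0.95 ± 0.24 (adjusted p = 0.0236), from 1317, 2073, 1242 and 1128 to 2706, 3544, 2224 and 2580.3, with no overlap. Hmgcs1 rose by 0.81 ± 0.22 (adjusted p = 0.0331). Mvd fell by 0.77 ± 0.22 (adjusted p = 0.041), from 785, 698, 911 and 1064 to 522, 555, 556 and 371, and Srebf1 by 0.60 ± 0.16 (adjusted p = 0.0343), from 846, 941, 627 and 929 to 666, 501, 562 and 447. At the deposited scaling Mvd and Srebf1 stayed lower, by 0.54 and 0.39, but did not pass. Fdft1 had 4 Ro signals above all 4 controls but its 0.78 ± 0.26 did not pass (adjusted p = 0.0698).

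**Figure D3:**
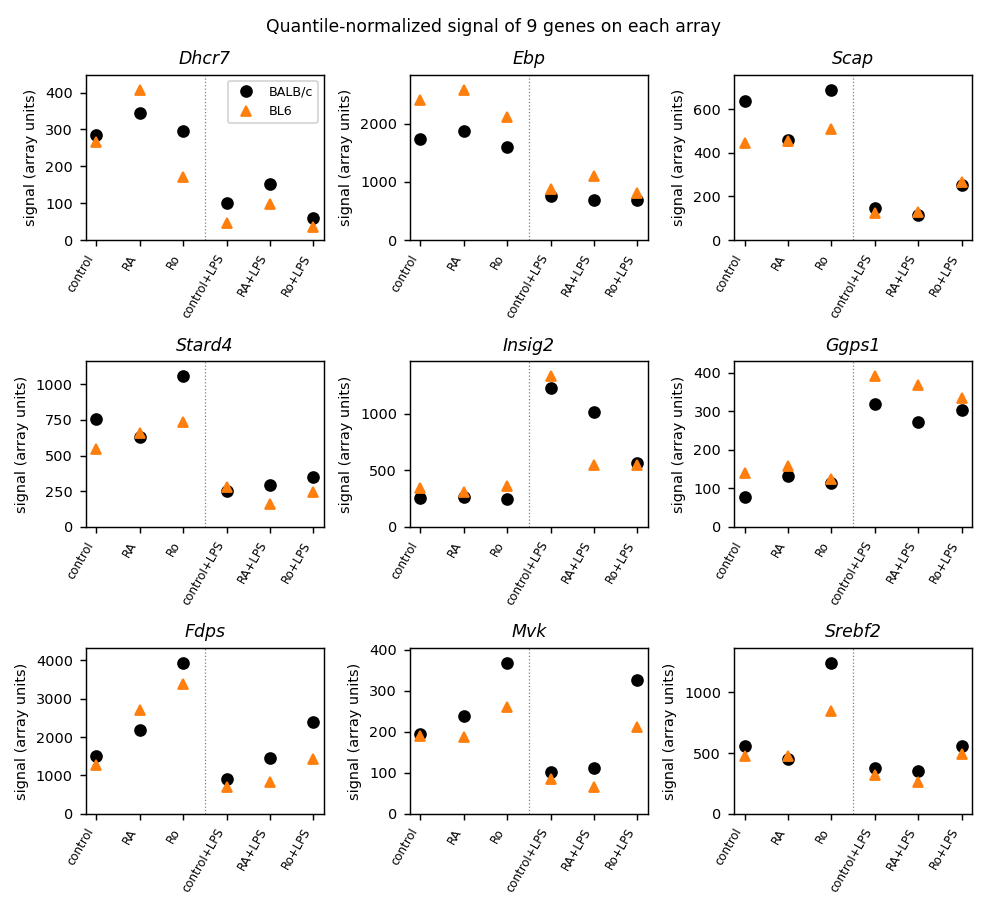
Quantile-normalized signals of 9 members are drawn by condition on linear axes that start at 0, with a circle for the BALB/c array and a triangle for the BL6 array. Fdps and Srebf2 are higher with Ro than in the matched control in both strains and both LPS states, and Insig2 is higher with LPS in every retinoid condition.

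With Ro split by LPS state, Fdps (1.38 ± 0.24) and Srebf2 (0.96 ± 0.19) rose without LPS, where 1.56% of all genes rose and 2.33% fell. Neither call was made without the block or without any 1 of the 4 arrays compared. With LPS, Hmgcs1, Mvk, Fdps, Cyp51, Hsd17b7 and Scap rose and Insig2 and Srebf1 fell, where 11.2% of all genes rose and 9.08% fell. Cyp51 rose by 1.61 ± 0.36 (3.05-fold, adjusted p = 0.0141) and Mvk by 1.36 ± 0.22 (2.57-fold, adjusted p = 0.0038). Insig2 fell by 1.18 ± 0.30 (adjusted p = 0.0251): with LPS it was at 1226 and 1329 in controls and at 562 and 549.6 with Ro, and without LPS at 256 and 348 in controls and at 249 and 359 with Ro. Of the 8 calls with LPS, 2 were made without the block, 2 without the Ro+LPS array of BALB/c or the control+LPS array of BL6, 4 without the Ro+LPS array of BL6 and 5 without the control+LPS array of BALB/c.

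Cell type markers also moved with Ro. Over all genes 6.61% fell and 7.58% rose with Ro. Of 13 macrophage genes 7 fell and none rose, and their summed signal was 44269 to 63897 in the 4 controls and 13442 to 45464 with Ro. Of 14 dendritic cell genes 6 rose and none fell, with sums of 50621 to 61872 and 60110.0 to 85999.5. On each array 10 to 13 of the 13 and 12 to 14 of the 14 lay above the array median. Without LPS the proliferation sum was 20991 in BALB/c and 13522 in BL6 controls, and 29982 and 29099 with Ro. With LPS it was lower with Ro, at 4302 against 4828 in BALB/c and 4852 against 5550 in BL6. The granulocyte sum without LPS went from 24223 to 10678 with Ro in BALB/c and from 18164 to 34609 in BL6. The sum of erythroid and platelet genes was 3344 to 7774 in controls and 1022 to 2534 with Ro. Most of that sum was Pf4, at 846 to 9278 over the 12 arrays. Hba-a1, Alas2 and Klf1 reached at most 18.1, 4.08 and 46.7, so the sum mainly describes Pf4 and not a cell type. The part of any of these in the changes with Ro was not tested.

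RA was set against no retinoid on the same scale. No member passed: 2 had an unadjusted p under 0.05, the smallest adjusted p was 0.259 (Fdps, 0.62 ± 0.17), and 0.0322% of all genes were called. Of the 27, 17 lay above 0. Fdps was at 2174 and 1443 in BALB/c and 2709 and 828 in BL6 with RA, each above its matched control. Dhcr7 had 0.58 ± 0.21 (adjusted p = 0.385). Without LPS 0.225% of all genes were called and 1 member had an unadjusted p under 0.05. With LPS limma called none of the 12429 genes, with 1479 at an unadjusted p under 0.05, and 4 members were at that level. Leaving out the RA+LPS array of BALB/c gave 3 member calls with LPS.

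RA and Ro were also set against each other directly, which shares the Ro arrays with the Ro comparison. Of the 27 members, 9 were lower in RA than in Ro (Hmgcs1, Mvk, Pmvk, Idi1, Fdps, Hsd17b7, Srebf2, Scap and Mbtps1) and 4 were higher (Mvd, Sc5d, Dhcr7 and Srebf1), against 8.88% and 8.54% of all genes. Idi1 was at 854, 1829.9, 988 and 586 with RA (BALB/c without and with LPS, then BL6) and at 2706, 3544, 2224 and 2580.3 with Ro, with no overlap. The difference was -1.47 ± 0.24 (2.76-fold, adjusted p = 0.00172). Srebf2 was at 455, 352, 477 and 260.0 with RA and differed by -0.94 ± 0.15 (adjusted p = 0.00134).

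Dhcr7 was higher in RA, at 344, 153, 408 and 99.1, than in Ro, at 296, 59.2, 171 and 35.2, a difference of 0.93 ± 0.21 (adjusted p = 0.0103). Pmvk was at 258, 1176, 546 and 483 with RA and at 491, 2712, 653 and 3013 with Ro, a difference of -1.23 ± 0.37 (adjusted p = 0.0423). The macrophage and dendritic cell markers differed here too. Of the 13 macrophage genes, 9 were higher in RA than in Ro (median 1.70). Of the 14 dendritic cell genes, 9 were lower (median -1.67), and none of either list went the other way. Over all genes, 8.54% were higher and 8.88% lower. The macrophage sums were 54862 to 79040 with RA and the dendritic cell sums 36697 to 56768, against the Ro sums given above. Their part in these differences was not tested. Without normalization, 15 members were lower and 2 higher, with 27.1% of all called genes higher in place of 49.0%. The share of all genes called without normalization is not given here, so these counts do not set the members apart. Only Mvk, Idi1, Dhcr7 and Srebf2 kept the call in each of the 12 fits without 1 array, and Mvk lost it with the mean of all kept probe sets. The count fell to 5 to 6 without either RA+LPS array, either Ro+LPS array or the RA array of BALB/c, to 8 without the Ro array of BL6, and to 6 without the block. In either strain alone 1 member was called, with 4.45% of all genes called in BALB/c and 3.28% in BL6.

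**Figure D4:**
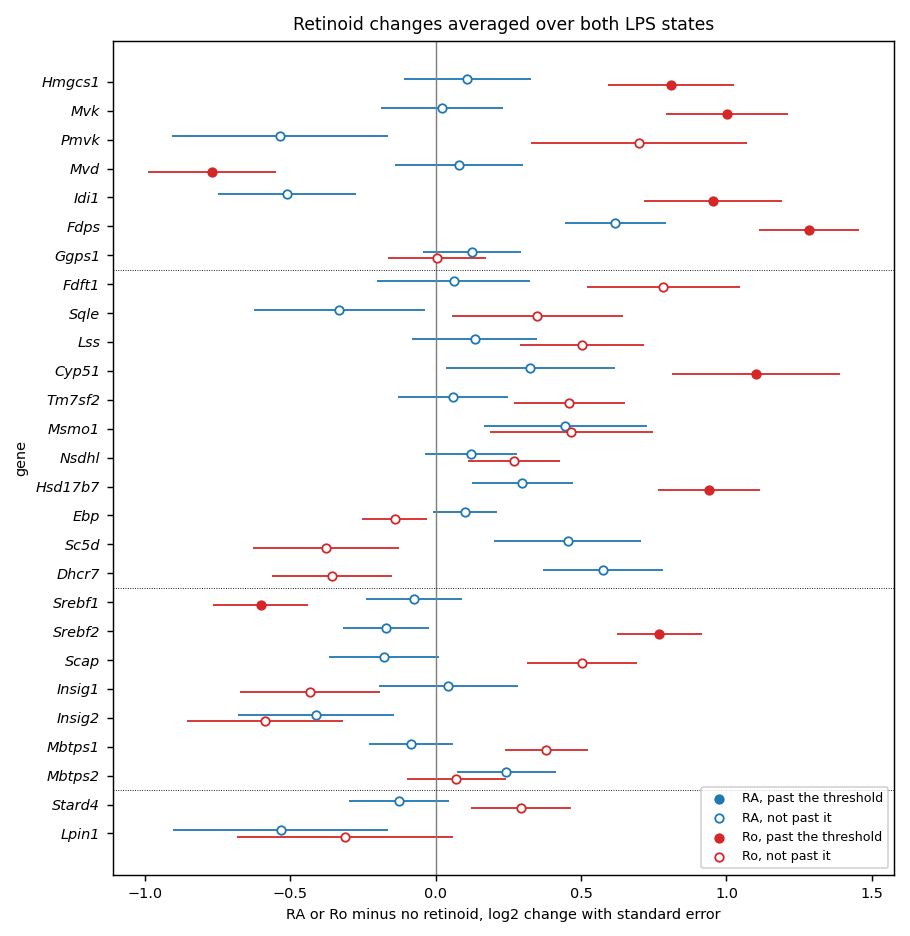
The changes of each member with RA and with Ro against no retinoid, averaged over LPS states, are plotted on the log2(signal + 16) scale with standard errors, filled where the threshold was passed. Fdps lies at 0.62 with RA and 1.28 with Ro, and Idi1 at -0.51 and 0.95.

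Between the strains, averaged over the 6 conditions, Sqle (0.82 ± 0.24, adjusted p = 0.0405) and Nsdhl (0.48 ± 0.13, adjusted p = 0.0296) were higher in BALB/c and Ebp was lower (-0.41 ± 0.09, adjusted p = 0.0131), where 7.27% and 8.13% of all genes were. Ebp was lower in BALB/c in 6 of 6 conditions. With the deposited values left as they were, 11 members were called, all of them higher in BALB/c. Of all called genes 74.7% were then higher, in place of 47.2%. The share of all genes called in that fit is not given here, so the 11 calls do not set the members apart. Of the 27 members, 20 lay above 0 with quantile normalization and 23 as deposited. The call of Ebp was made in each of the 12 fits without 1 array but not at the deposited scaling. Only that of Ebp was made without the control+LPS array of BALB/c, the control or Ro+LPS array of BL6 or either RA+LPS array, and 6 calls were made without the RA array of BL6.

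The response to LPS was tested between the strains, and no member passed (smallest adjusted p 0.158, Sc5d), where 0.0241% of all genes were called. The LPS change of 24 of the 27 members was more positive in BALB/c than in BL6, and 9 had an unadjusted p under 0.05. The members' median difference was 0.52, against 0.01 over all genes. At the deposited scaling 17 of 27 lay above 0 and 23 above the median of all genes, which was itself at -0.25. Msmo1 was at 1025, 1025 and 1340.3 without and 941, 1229.9 and 1099 with LPS in BALB/c (control, RA and Ro), and at 1172, 1747 and 1234 without and 362, 657 and 847 with LPS in BL6. Its strain by LPS difference was 1.14 ± 0.32 (adjusted p = 0.346). In fits of 1 strain alone, 8 members fell and 5 rose with LPS in BALB/c, where 19.1% and 15.6% of all genes did, and 14 fell and 2 rose in BL6, against 13.1% and 9.78%.

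Neighbouring pathways were described with lists of genes that hold none of the members. Of 18 fatty acid and NADPH genes tested, 14 fell and 4 rose with LPS, with a median of -1.08, where 28.8% of all genes fell and 24.4% rose. Fasn, the fatty acid synthase, fell by 3.29 ± 0.21 and Elovl6, a fatty acid elongase, by 2.36 ± 0.18. With Ro 5 of the 18 rose and 3 fell, against 7.58% and 6.61% of all genes, and Fads2 (1.60 ± 0.29), Fasn (1.26 ± 0.26) and Elovl6 (1.07 ± 0.22) were among those that rose, while Scd1, a desaturase, fell by 1.09 ± 0.26. Fasn, Elovl6, Fads2 and Aacs, the acetoacetyl-CoA synthetase, thus fell with LPS and rose with Ro, as Hmgcs1, Mvk, Fdps, Cyp51, Hsd17b7 and Srebf2 did. The Ro calls of Hmgcs1 and Cyp51 were lost in some fits, and the share of all genes that did both was not counted.

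Genes that export or store sterol moved differently with Ro. Of 15 genes of efflux and of the oxysterol receptor LXR, 6 fell and none rose with Ro, with a median of -0.77, where 6.61% of all genes fell and 7.58% rose. Apoe, the apolipoprotein that accepts cellular cholesterol, fell by 4.53 ± 0.38 and Abca1, the cholesterol exporter, by 1.89 ± 0.24. Of 18 genes of sterol storage, transport and oxysterol synthesis, 6 fell and none rose with Ro. Among them Lipa, the lysosomal lipase that frees cholesterol, fell by 1.26 ± 0.18 and Nceh1, a cholesteryl ester hydrolase, by 1.43 ± 0.28. With LPS the efflux list had 5 of 15 lower and 2 higher and the storage list 4 of 18 lower and 8 higher, against 28.8% lower and 24.4% higher over all genes. Apoe is also a macrophage marker, and the macrophage sums with Ro are those given above.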

How the data were processed

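The authors deposited linear intensities of probe sets, in 1 table of 12 arrays. Per the submitters' processing notes these come from MAS5, whose version and target are not given in the sources used here. The array medians differed by up to 1.96-fold, so the intensities were quantile normalized, with the deposited scaling as an alternative, and analysed as log2(signal + 16). Probe sets above the array's median on at least 2 arrays were kept, and the single-gene probe set of highest mean stood for a gene. The platform annotation named 34945 probe sets with 1 gene, 932 with several and the rest with none. Of the former, 34741 matched the RefSeq gene table. The tool was limma 3.58.1, run under R 4.3.3 as lmFit and eBayes with an intensity trend, on all 12 arrays, with Benjamini-Hochberg adjustment over the 12429 genes and a threshold of 0.05. Averaged comparisons had terms for retinoid, for LPS and for strain, with strain by LPS added once, and the others had the 6 conditions plus strain. Folds are those of signal + 16. Strain was the block because replicate numbers stand for strains: the strain differences of any 2 conditions correlated across genes with r of 0.31 to 0.71 over 15 pairs. The number of arrays limits the precision. The fits were checked on simulated data, and figures were drawn with matplotlib 3.10.9 under Python 3.11.15, with numpy 2.4.6 and pandas 2.3.3.

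The members and lists were chosen with earlier results of these data known. Every member is described. From each other list, up to 4 called genes per averaged comparison by smallest adjusted p, and up to 2 others as values, could be named.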

Additional observations from a re-analysis of the deposited data

How the results depend on the processing

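The alternatives were the deposited scaling, a common trimmed mean, a pseudocount of 1 or 64, no filter, the mean of all kept probe sets, no intensity trend, no replicate block and leaving out arrays. The count of members called with Ro went from 9 to 14 at the deposited scaling and to 4 with no replicate block. That for RA against Ro went from 13 to 7 with no filter, to 8 with the mean of probe sets or no trend, and to 6 with no replicate block. The strain count went from 3 to 11 at the deposited scaling and 5 with the common trimmed mean. With no replicate block the count of LPS calls in RA cultures went from 15 to 9, that of Ro without LPS from 2 to 0 and that of Ro with LPS from 8 to 2, and the LPS count in Ro cultures went from 10 to 17 at the deposited scaling. Over all genes with no replicate block, calls with Ro went from 1764 to 892 and those of RA against Ro from 2165 to 1390. The 4 genes called with RA went to 0 in 6 of the alternatives, and those of RA without LPS from 28 to 0 with no trend or no replicate block. Leaving out 1 array or 1 strain gave 13 to 21 member calls for LPS, 0 to 10 for Ro, 1 to 12 for RA against Ro, 1 to 6 for strain, 9 to 16 for LPS without retinoid, 7 to 13 in RA cultures, 4 to 13 in Ro cultures, 0 to 3 for RA with LPS, 0 to 3 for Ro without LPS, 2 to 10 for Ro with LPS and 0 to 1 for Ro by LPS. Sc5d for LPS reversed in BALB/c alone: leaving out 1 strain gave -1.16 (without BALB/c) to 0.013 (without BL6), and Mbtps1 reversed for LPS without retinoid with the mean of probe sets (0.18). Of the 21 LPS calls, 18 were kept in each of the 8 alternative settings, and Msmo1, Sc5d and Mbtps1 were not. Except where fewer arrays were fitted, the cause was not tested.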

Other observations

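Genes next to the pathway that it feeds were measured on the same arrays. Of 12 genes of the isoprenoid branch, which attach farnesyl and geranylgeranyl groups to proteins or build dolichol and ubiquinone, 5 rose and 4 fell with LPS, where 24.4% of all genes rose and 28.8% fell. Nus1, a subunit of the enzyme that makes dolichol, rose by 1.79 ± 0.17, from a mean signal of 396 to 1476 over 6 arrays each. Zmpste24, a protease that trims prenylated proteins, fell by 1.26 ± 0.19, and Fnta, the shared subunit of the farnesyl and geranylgeranyl transferases, by 0.99 ± 0.19. With Ro 1 of the 12 rose, against 7.58% of all genes, namely Fntb, whose mean signal of 17.4 in controls lay near background.

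Of 9 further genes of sterol synthesis and sterol-regulated turnover, 4 fell with LPS and none rose by limma, against the same shares of all genes. Lbr, a sterol reductase of the inner nuclear membrane, fell by 2.56 ± 0.19, from a mean of 795 to 115. Acat1, the mitochondrial acetoacetyl-CoA thiolase, fell by 2.17 ± 0.10, from 1794 to 380.4. Tmem97, a sterol-binding membrane protein, fell by 0.83 ± 0.21 and Rnf145, a ubiquitin ligase of the same membrane, by 0.74 ± 0.24. With Ro, Acat1 rose by 0.95 ± 0.13 and Erlin1, which binds the Srebf and Scap complex, by 1.20 ± 0.28, while Erlin1 differed by 0.00 ± 0.23 with LPS.

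The storage list held wide changes with LPS in both directions. Olr1, a receptor for oxidised lipoprotein, rose by 2.47 ± 0.28, from a mean of 149 to 871, and Cyp27a1, a mitochondrial sterol hydroxylase, fell by 2.57 ± 0.21, from 589 to 87.8.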
